A study of Mus musculus with 22 samples.

Results

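Proteins that enter the secretory pathway are folded in the endoplasmic reticulum (ER), and 32 genes of that machinery and of its stress response were followed in mouse lung. The list was given by gene symbol: lumenal chaperones, protein disulfide isomerases, co-chaperones, secreted stress proteins, the translocon, ER-associated degradation (ERAD), the stress sensors and their transcription factors. All 32 were found among the 20938 genes measured and all 32 were among the 15682 genes tested. The samples were 22 lungs of BALB/c mice (the genotype label spells BABL/c mouse), 1 library each. The groups were ovalbumin (OVA), methacholine (MCh) and phosphate-buffered saline (PBS) aerosol in a long protocol of 3 challenges a week for 4 weeks (4, 4 and 3 libraries) and in a short protocol on 3 consecutive days (4, 4 and 3 libraries). Per the treatment labels, all mice, those given PBS or MCh included, received an intraperitoneal sensitization aged 49 days and a booster aged 63 days, and aerosols began at 70 days. The sensitizing antigen is not named in the labels. OVA is an egg-white protein used as an allergen in models of asthma, and MCh is a muscarinic agonist that constricts airways.

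As background, the chaperone BiP (Hspa5) holds nascent chains in the ER and also binds the lumenal parts of the sensors IRE1 (Ern1, Ern2), PERK (Eif2ak3) and ATF6. When unfolded chains build up, IRE1 splices Xbp1 mRNA, PERK slows translation while favouring Atf4, and ATF6 is cut in the Golgi to a transcription factor. Chaperones, isomerases, the translocon and ERAD are targets of XBP1 and ATF6, and Ddit3 and Trib3 are targets of ATF4. Cells with a heavy secretory load, such as antibody-secreting plasma cells and mucus-secreting goblet cells, are known for high levels of this machinery, and IRE1 beta (Ern2) is known from mucous epithelia.

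Values are deposited FPKM (fragments per kilobase of transcript, scaled to the mapped fragments of the library), 1 value per library, in the order a to d or 1 to 4. Long OVA and long MCh libraries are lettered because their columns could be tied to their group only. A library gave an estimated 15.2 to 25.5 fragments for a 1 kilobase transcript at 1 FPKM. Long MCh libraries a and c listed 34.3% and 33.8% of all genes at 0, short MCh library 1 listed 28.3%, and the others listed 22.5% to 25.3%. Single values of these 3 libraries stood apart from their groups for Xbp1, Sel1l, Trib3 and Ern2. The defining markers of lung epithelium and endothelium were present in every group, with sums over 10 genes of 45739 to 77945 FPKM. Titles give 4 days for the short MCh group and call MCh and PBS mice normal and OVA mice allergic, and the series text speaks of trachea. The treatment and tissue labels were followed. Changes are log2 fold changes of log2(FPKM + 0.5) ± SE, and a gene is called when its limma p, adjusted over the 15682 genes by the Benjamini-Hochberg method, is under 0.05. The titles call the libraries of a group biological replicates. The model estimates 1 spread over all 6 groups, so that groups of equal size share their SE.

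The promoters of several members hold the ER stress response element (ERSE), the composite site that NF-Y and ATF6 or XBP1 are known to bind. RefSeq promoter sequences (GRCm38.p6, the same assembly as mm10), from 250 bases before to 50 after the start, were matched for 25 of the 32 genes, and Hyou1, Manf, Sec61a1, Derl1, Ern2, Atf6 and Creb3l1 had no entry. The exact ERSE, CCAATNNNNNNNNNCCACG on either strand, stood in 8 of the 25 genes (32%): Hspa5, Hsp90b1, Calr, Canx, Pdia6, Dnajc3, Creld2 and Syvn1. Counted by promoter entry, the same letters stood in 39 of all 32851 (0.119%), and counted by gene symbol in 37 of 27025, the 8 members included. The related ERSE-II, ATTGGNCCACG, stood in Dnajb11 and Herpud1, and over all in 12 of the 32851 entries (0.0365%) and 12 of the 27025 symbols. In Dnajb11 it lay after the start site. The UPRE, TGACGTGG, and the element TGATGNAAT, a form of the sites known for ATF4, were in none of the 25 and in 0.676% and 0.965% of all entries. Both strands were searched for each, and the ERSE and ERSE-II share the letters CCACG. A match is a description of letters and no measurement of binding.

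The 250 bases before the start of Hspa5, the gene of BiP, are shown because BiP is the standard readout of this response, with the exact ERSE in capitals, which begins 65 bases before the start (chr2:34771840-34772089, plus strand):
Hspa5: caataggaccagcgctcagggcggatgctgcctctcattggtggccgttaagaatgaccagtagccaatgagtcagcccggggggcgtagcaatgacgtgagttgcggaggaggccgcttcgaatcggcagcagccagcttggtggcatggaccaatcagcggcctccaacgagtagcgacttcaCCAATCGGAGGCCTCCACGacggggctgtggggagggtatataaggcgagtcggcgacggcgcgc

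The matches of the other genes are shown with 15 bases on each side, in capitals the ERSE (for Herpud1 the ERSE-II), 5′ to 3′ on the gene's strand, so that the site of Calr, the second of Hsp90b1 and that of Creld2 read as the reverse complement:
Hsp90b1: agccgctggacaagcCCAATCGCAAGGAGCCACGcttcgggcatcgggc
Hsp90b1: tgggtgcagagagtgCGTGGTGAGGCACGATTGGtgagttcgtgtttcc
Calr: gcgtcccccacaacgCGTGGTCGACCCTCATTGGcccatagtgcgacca
Canx: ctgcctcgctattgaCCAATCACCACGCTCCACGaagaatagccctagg
Pdia6: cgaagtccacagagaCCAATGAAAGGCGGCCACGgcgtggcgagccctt
Dnajc3: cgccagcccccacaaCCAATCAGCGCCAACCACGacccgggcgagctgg
Creld2: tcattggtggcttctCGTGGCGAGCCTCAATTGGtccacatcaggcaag
Syvn1: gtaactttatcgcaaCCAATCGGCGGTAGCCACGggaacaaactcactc
Herpud1: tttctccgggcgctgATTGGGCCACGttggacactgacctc
They lie at chr10:86705623-86705671 (minus strand) and chr10:86705518-86705566 for Hsp90b1, chr8:84847060-84847108 (minus strand) for Calr, chr11:50325785-50325833 (minus strand) for Canx, chr12:17266476-17266524 (plus strand) for Pdia6, chr14:118937812-118937860 (plus strand) for Dnajc3, chr15:88819505-88819553 (plus strand) for Creld2, chr19:6046517-6046565 (plus strand) for Syvn1 and chr8:94386362-94386402 (plus strand) for Herpud1. All begin between 44 and 212 bases before the start. Of the 10 genes with either element, 5 were called higher after long OVA and 7 after short OVA challenge, and of the 15 with a promoter entry and neither element 5 and 7. Of all tested genes 1.03% were called higher after long and 12.4% after short OVA challenge. Syvn1, Canx and Herpud1 hold an element and were called in neither protocol.

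In OVA lungs the 4 co-chaperones, Manf and Creld2, the chaperone Hspa5, the isomerases Pdia4 and Pdia6 and the factor Xbp1 were called higher than in PBS lungs in both protocols. Hsp90b1, Calr, Pdia3, Sec61a1 and Sec61b were called in the short protocol. In the long protocol 4 of the 5 lumenal chaperones, all 3 translocon genes and 5 of the 6 ERAD genes were not called. Ern1, Eif2ak3, Atf6 and the ATF4 targets Ddit3 and Trib3 were called in neither. After the long protocol 11 of 32 genes were called higher and none lower, with 1.03% of all tested genes called higher and 0.153% lower. After the short protocol 18 were called higher and none lower, with 12.4% of all tested genes called higher and 11.7% lower. With quantile normalization the short counts were 17 higher and 2 lower (Ern1 and Herpud1), with 28% of all tested genes called. The median change of the 32 was 0.42 (long) and 0.49 (short), beside -0.02 and -0.06 over all tested genes, on the log2 scale. All 32 estimates were above 0 in the long protocol and 26 in the short. In 27 genes all 4 long OVA libraries lay above all 3 long PBS libraries, which was so for 9.95% of all tested genes. For short OVA the count was 23 genes and the share of all genes 23.2%. Called higher in both protocols were 10 genes, 10 of the 11 long and 10 of the 18 short calls: Hspa5, Pdia4, Pdia6, Dnajb9, Dnajb11, Dnajc3, Sdf2l1, Manf, Creld2 and Xbp1. The 2 protocols have their own OVA and PBS lungs. In bulk tissue, more cells that carry an mRNA and more of that mRNA per cell cannot be told apart.

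**Figure D1:**
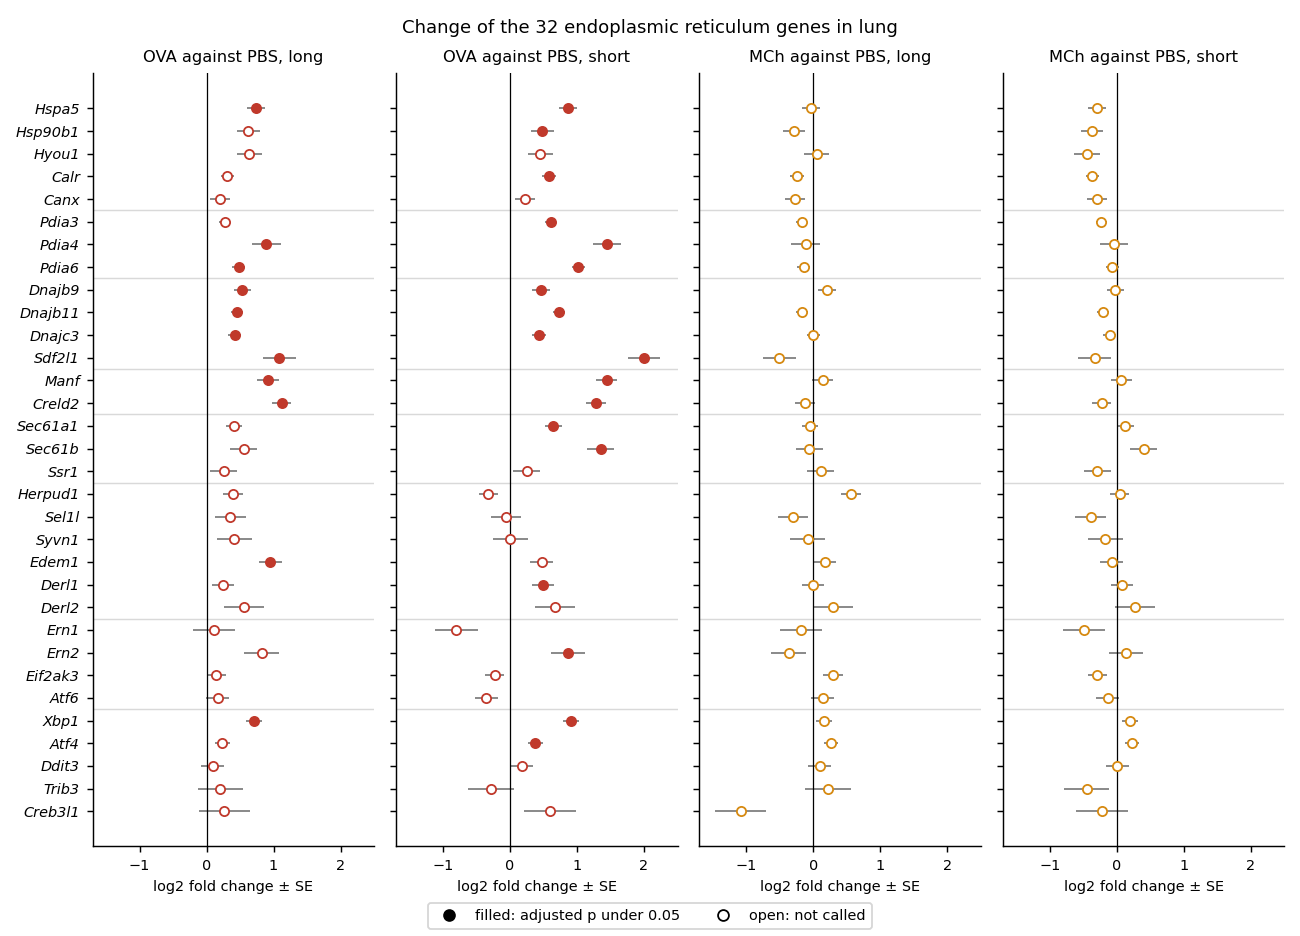
Log2 fold change ± SE of each of the 32 genes (rows, grouped by role from chaperones at the top to transcription factors and targets at the bottom) in OVA and MCh lungs against the PBS lungs of the same protocol. Filled points have an adjusted p under 0.05: 11 genes in long OVA, 18 in short OVA and none in either MCh panel.

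Among the lumenal chaperones, Hspa5 was higher in OVA lungs in both protocols, and Hsp90b1 and Calr were called in the short protocol. Hspa5 had 554, 448, 465 and 478 FPKM in long OVA lungs, against 313, 303 and 256 FPKM in long PBS lungs, and 472, 544, 593 and 487 FPKM in short OVA lungs, against 301, 288 and 270.0 FPKM in short PBS lungs. Every OVA library lay above every PBS library, with log2 changes of 0.74 ± 0.14 (adjusted p = 0.00587) in the long and 0.86 ± 0.14 (adjusted p = 0.000152) in the short protocol. Without long PBS library 3 the long call was lost (adjusted p = 0.0722). Hsp90b1, the ER member of the HSP90 family (GRP94), had 891, 666, 618 and 664 FPKM in long OVA lungs, against 479.9, 453 and 435 FPKM in long PBS lungs, and 502, 612, 625 and 563 FPKM in short OVA lungs, against 419.8, 413 and 396 FPKM in short PBS lungs. The groups did not overlap in either protocol. The short change of 0.48 ± 0.17 (adjusted p = 0.0386) was called, and the long change of 0.62 ± 0.17 (adjusted p = 0.0774), in which library a was the highest, was not. Without short OVA library 2, 3 or 4 or any 1 short PBS library the short call was lost, with adjusted p of 0.062 to 0.125. Alternative fits called Hsp90b1 higher in 9 of 12 short runs, with estimates of 0.25 to 0.59, and in 4 of 11 long runs. Calr, the soluble lectin chaperone of glycoproteins, had 519, 522, 559.5 and 531 FPKM in long OVA lungs, against 434, 448 and 408 FPKM in long PBS lungs, and 595, 663, 613 and 646 FPKM in short OVA lungs, against 445, 395 and 418 FPKM in short PBS lungs. It rose by 0.58 ± 0.10 (adjusted p = 0.000313) in the short protocol, and its long estimate was 0.31 ± 0.10 (adjusted p = 0.218) with no overlap of the groups. Canx, the membrane-bound lectin chaperone, had 151 to 162 FPKM in long OVA lungs, against 128 to 143 FPKM in long PBS lungs, and 147 to 170.4 FPKM in short OVA lungs, against 131 to 139 FPKM in short PBS lungs, without a call (adjusted p = 1 and 0.318). Hyou1, the large HSP70-like nucleotide exchange factor of BiP, had 216 to 249 FPKM in long OVA lungs, against 141 to 164 FPKM in long PBS lungs, and 159.6 to 207 FPKM in short OVA lungs, against 131 to 136 FPKM in short PBS lungs. Its estimates of 0.64 ± 0.19 (adjusted p = 0.145) and 0.45 ± 0.19 (adjusted p = 0.0874) were not called though the groups did not overlap. Alternative fits called Hyou1 higher in 4 of 11 (long) and 4 of 12 (short) runs.

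All 3 protein disulfide isomerases, the enzymes that form and rearrange disulfide bonds, were higher in short OVA lungs, and Pdia4 and Pdia6 also in long OVA lungs. Pdia4 had 184, 138, 138 and 144 FPKM in long OVA lungs, against 95.2, 71.4 and 76.8 FPKM in long PBS lungs, and 179, 184, 183 and 172 FPKM in short OVA lungs, against 61.8, 82.7 and 55.1 FPKM in short PBS lungs. The 4 short OVA values lay close together above the PBS values, and the changes were 0.89 ± 0.21 (adjusted p = 0.0441) in the long and 1.45 ± 0.21 (adjusted p = 7.47e-05) in the short protocol. Leaving out any 1 of the 7 long libraries ended the long Pdia4 call, with adjusted p of 0.057 (without OVA library b) to 0.239 (without PBS library 2). Pdia6 had 279, 238, 237 and 248 FPKM in long OVA lungs, against 186, 185 and 168 FPKM in long PBS lungs, and 324, 353, 347 and 330.0 FPKM in short OVA lungs, against 177, 170.4 and 154 FPKM in short PBS lungs. It rose by 0.48 ± 0.10 (adjusted p = 0.0157) and 1.02 ± 0.10 (adjusted p = 5.5e-07), and the long call was lost without OVA library a or any 1 PBS library (adjusted p = 0.0541 to 0.141). Pdia3, the isomerase that works with calnexin and calreticulin, had 450.3, 431, 477 and 453 FPKM in long OVA lungs, against 394, 362 and 369 FPKM in long PBS lungs, and 526, 579, 572 and 555 FPKM in short OVA lungs, against 389, 360.4 and 347 FPKM in short PBS lungs. Its short change of 0.61 ± 0.08 (adjusted p = 2.46e-05) was called and its long estimate of 0.27 ± 0.08 (adjusted p = 0.156) was not, with no overlap in either protocol.

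The 4 co-chaperones were all called higher in both protocols, and Sdf2l1 had the largest short change of the 32 genes. Sdf2l1, a partner of the J-domain protein DNAJB11, had 22.7, 18.7, 16.9 and 17.2 FPKM in long OVA lungs, against 9.81, 9.26 and 6.90 FPKM in long PBS lungs, and 35.9, 32.9, 35.3 and 32.5 FPKM in short OVA lungs, against 8.49, 8.64 and 7.40 FPKM in short PBS lungs. The short OVA values lay far above the PBS values, with a log2 change of 2.0 ± 0.25 (adjusted p = 8.93e-06), and the long change was 1.09 ± 0.25 (adjusted p = 0.03). The long call held without OVA library c and was lost without any 1 of the other long libraries, with adjusted p of 0.056 to 0.235. Dnajb11, which delivers unfolded chains to BiP, had 72.5, 63.8, 65.3 and 66 FPKM in long OVA lungs, against 50.3, 49.5 and 45.7 FPKM in long PBS lungs, and 84, 77.9, 84.3 and 79.8 FPKM in short OVA lungs, against 48.9, 47.6 and 49.4 FPKM in short PBS lungs. Its changes were 0.46 ± 0.09 (adjusted p = 0.0098) and 0.74 ± 0.09 (adjusted p = 8.09e-06), the long call being lost without OVA library a (adjusted p = 0.0516) or PBS library 3 (0.0989). Dnajc3, the J-domain protein also known as an inhibitor of PERK, had 406, 377, 373 and 375 FPKM in long OVA lungs, against 300.4, 272 and 286 FPKM in long PBS lungs, and 322, 386, 379 and 353 FPKM in short OVA lungs, against 263, 281 and 255 FPKM in short PBS lungs. It rose by 0.42 ± 0.10 (adjusted p = 0.0444) and 0.43 ± 0.10 (adjusted p = 0.00405). The long call was lost without any 1 of the 7 long libraries (adjusted p = 0.0739 to 0.239). Alternative fits called Dnajc3 in 8 of 11 long and 11 of 12 short runs, with short estimates of 0.19 to 0.68. Dnajb9, a J-domain protein that restrains IRE1, had 15, 12.5, 14.8 and 14.2 FPKM in long OVA lungs, against 9.71, 8.96 and 10 FPKM in long PBS lungs, and 15.3, 18.5, 20.4 and 15.3 FPKM in short OVA lungs, against 12.9, 12.3 and 11.9 FPKM in short PBS lungs. The changes were 0.54 ± 0.13 (adjusted p = 0.0456) and 0.46 ± 0.13 (adjusted p = 0.0133). The long call remained only without OVA library b and otherwise gave adjusted p of 0.118 to 0.239, and the short call was lost without PBS library 3 (0.0639).

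Manf and Creld2, small secreted proteins known as markers of ER stress, rose in both protocols and kept their calls without any 1 library. Manf had 192, 143, 148 and 151 FPKM in long OVA lungs, against 91, 85.5 and 73.5 FPKM in long PBS lungs, and 286, 284, 278 and 241 FPKM in short OVA lungs, against 117, 91 and 93.7 FPKM in short PBS lungs. Its changes were 0.92 ± 0.16 (adjusted p = 0.00312) and 1.44 ± 0.16 (adjusted p = 2.12e-06), and no OVA library came near the PBS range. Creld2 had 123, 85.5, 82.1 and 99 FPKM in long OVA lungs, against 44.1, 47.7 and 40.4 FPKM in long PBS lungs, and 122, 121, 127 and 115 FPKM in short OVA lungs, against 54.1, 49.1 and 45.4 FPKM in short PBS lungs. With 1.12 ± 0.14 (adjusted p = 0.000201) it had the smallest adjusted p of the 32 genes in the long protocol, and the short change was 1.28 ± 0.14 (adjusted p = 3.3e-06).

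**Figure D2:**
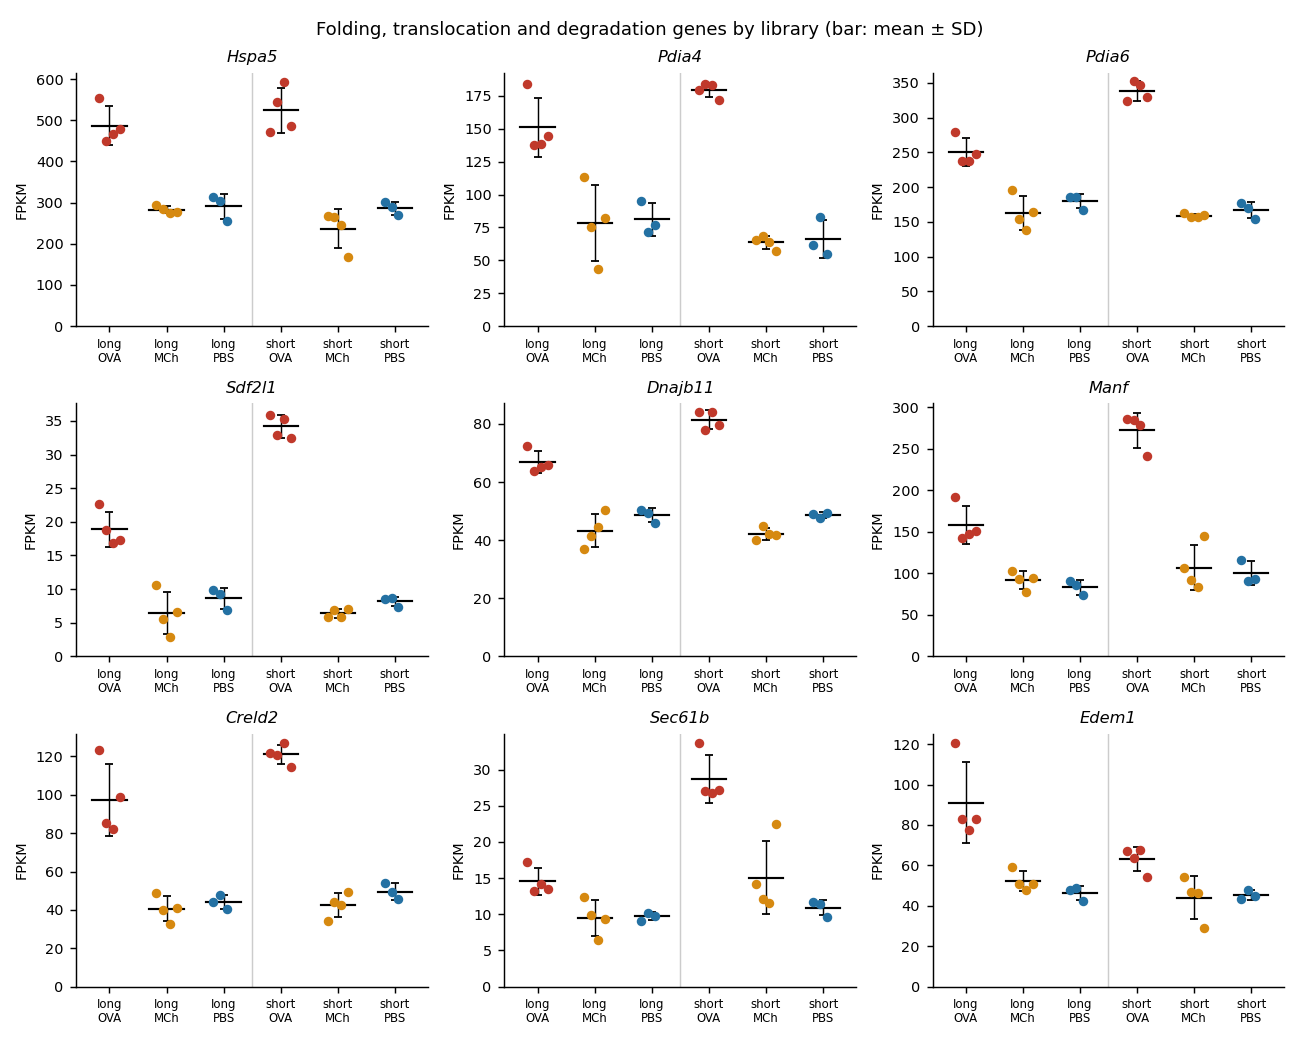
FPKM of 9 folding, translocation and degradation genes in each of the 22 libraries (points), with the mean and SD of each group (bars), long groups at left and short groups at right. For Hspa5, Pdia6, Sdf2l1, Manf and Creld2 every OVA point lies above every MCh and PBS point of its protocol, and long OVA library a is the highest long point in all 9 panels.

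In the translocon, through which chains enter the ER, the channel subunits Sec61a1 and Sec61b were called in short OVA lungs. Sec61b had 17.2, 13.2, 14.2 and 13.5 FPKM in long OVA lungs, against 9.10, 10.2 and 9.79 FPKM in long PBS lungs, and 33.6, 27.1, 26.7 and 27.2 FPKM in short OVA lungs, against 11.7, 11.3 and 9.68 FPKM in short PBS lungs. The short change was 1.35 ± 0.20 (adjusted p = 8.6e-05) and the long estimate 0.55 ± 0.20 (adjusted p = 0.342), with no overlap of OVA and PBS in either. All 12 alternative short fits called Sec61b, with estimates of 0.80 to 1.42. Sec61a1, the pore-forming subunit, had 399, 350.4, 394 and 397 FPKM in long OVA lungs, against 288, 294 and 283 FPKM in long PBS lungs, and 445, 415, 449 and 458 FPKM in short OVA lungs, against 283, 284 and 277 FPKM in short PBS lungs. It rose by 0.65 ± 0.12 (adjusted p = 0.000702) in the short protocol, and the long estimate was 0.41 ± 0.12 (adjusted p = 0.139). Ssr1, a subunit of the translocon-associated protein complex, had 76.5 to 82.6 FPKM in long OVA lungs, against 64.6 to 66.5 FPKM in long PBS lungs, and 73.4 to 80.6 FPKM in short OVA lungs, against 63 to 67.6 FPKM in short PBS lungs. It was not called (adjusted p = 1 and 0.395), though the groups did not overlap. Of the alternative fits, 2 of 11 (long) and 3 of 12 (short) called it higher, with short estimates of 0.24 to 0.71.

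Of the 6 ERAD components, which extract and destroy misfolded chains, Edem1 was called in the long protocol, Derl1 in the short, and the other 4 in neither. Edem1, which marks misfolded glycoproteins by mannose trimming, had 121, 83.1, 77.3 and 82.8 FPKM in long OVA lungs, against 47.6, 48.9 and 42.2 FPKM in long PBS lungs, and 66.9, 63.7, 67.7 and 54.4 FPKM in short OVA lungs, against 43.1, 48 and 44.9 FPKM in short PBS lungs. Long OVA library a stood apart at the top, and the long change of 0.95 ± 0.17 (adjusted p = 0.00488) was called also without it (0.81, adjusted p = 0.021). The short estimate was 0.47 ± 0.17 (adjusted p = 0.0504), just outside the threshold, and without short OVA library 4 it was inside (adjusted p = 0.0426). Alternative fits called the short Edem1 estimate higher in 9 of 12 runs. Derl1, a channel component of ERAD, had 32.1 to 36.2 FPKM in long OVA lungs, against 28.2 to 29 FPKM in long PBS lungs, and 43.4 to 43.9 FPKM in short OVA lungs, against 29.8 to 32.5 FPKM in short PBS lungs. The short change of 0.49 ± 0.16 (adjusted p = 0.0313) was called, and lost without any 1 of the 7 short libraries (adjusted p = 0.0554 to 0.101), and the long estimate was 0.25 ± 0.16 (adjusted p = 0.979). Its relative Derl2 had 56.5, 58.1, 54.1 and 54.6 FPKM in long OVA lungs, against 50.4, 48.7 and 21.8 FPKM in long PBS lungs, and 38.1, 67.6, 72.3 and 65.1 FPKM in short OVA lungs, against 50.3, 20.2 and 48.7 FPKM in short PBS lungs. Long PBS library 3, short PBS library 2 and short OVA library 1 were far below the other libraries of their groups, and Derl2 was not called (adjusted p = 0.795 and 0.109). Herpud1, a scaffold of the degradation complex and a known early target of ER stress, had 127, 141, 118 and 134 FPKM in long OVA lungs, against 103, 82.7 and 111 FPKM in long PBS lungs, and 137, 139, 174 and 135 FPKM in short OVA lungs, against 174, 208 and 167 FPKM in short PBS lungs. All long OVA values were above the long PBS values, whereas short OVA and short PBS overlapped with the OVA mean lower. The estimates were 0.40 ± 0.14 (adjusted p = 0.334) and -0.32 ± 0.14 (adjusted p = 0.112). The short estimate was called lower in 4 of 12 alternatives, with quantile normalization (-0.38, adjusted p = 0.0361), array weights (0.0435), the 2 groups fitted alone (0.0479) and the length trend removed (0.0284). Sel1l, the adaptor of the ubiquitin ligase HRD1, had 56.1 to 64.3 FPKM in long OVA lungs, against 45.3 to 46.7 FPKM in long PBS lungs, and 37.3 to 44.1 FPKM in short OVA lungs, against 40.8 to 43.9 FPKM in short PBS lungs. Syvn1, which encodes HRD1 itself, had 7.36 to 8.71 FPKM in long OVA lungs, against 5.51 to 6.52 FPKM in long PBS lungs, and 4.41 to 5.79 FPKM in short OVA lungs, against 4.51 to 5.59 FPKM in short PBS lungs. Neither was called, with long estimates of 0.36 ± 0.23 and 0.41 ± 0.26 and short estimates of -0.06 ± 0.23 and 0.00 ± 0.26.

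The 3 ubiquitous sensors were not called in either protocol, and their short estimates lay below 0. Ern1, the kinase and RNase IRE1 alpha, had 16.4, 18.2, 15.7 and 16.6 FPKM in long OVA lungs, against 15.6, 14.6 and 16.1 FPKM in long PBS lungs, and 6.04, 8.12, 6.08 and 8.43 FPKM in short OVA lungs, against 10.7, 15 and 12.8 FPKM in short PBS lungs. All 4 short OVA values were below the 3 short PBS values, which was so for 29.2% of all tested genes, with an estimate of -0.80 ± 0.31 (adjusted p = 0.0708) and a 95% interval of -1.45 to -0.14. It was called lower in 3 of 12 alternatives, with quantile normalization (-0.77, adjusted p = 0.0424), with array weights (0.000182) and with the 2 groups fitted alone (0.00419), and it was -0.44 (adjusted p = 0.113) with each library's trend on transcript length removed. Atf6, the sensor cleaved in the Golgi, had 12.9, 11.6, 11.4 and 10.9 FPKM in long OVA lungs, against 10.2, 10.2 and 10.7 FPKM in long PBS lungs, and 7.34, 8.27, 8.14 and 7.92 FPKM in short OVA lungs, against 9.35, 11 and 10.4 FPKM in short PBS lungs. The short OVA values again lay below PBS and the long OVA values above it, with estimates of 0.17 ± 0.17 (adjusted p = 1) and -0.35 ± 0.17 (adjusted p = 0.141). Atf6 was called lower in 2 of 12 alternatives, with array weights (adjusted p = 0.00176) and with the 2 groups fitted alone (0.0119), and with the length trend removed the short estimate was 0.02 (0.927). Eif2ak3, the kinase PERK, had 9.68, 10.7, 10.1 and 10.6 FPKM in long OVA lungs, against 9.01, 9.42 and 9.27 FPKM in long PBS lungs, and 7.60, 7.78, 9.31 and 7.97 FPKM in short OVA lungs, against 8.46, 10.5 and 10 FPKM in short PBS lungs. Its estimates were 0.15 ± 0.14 (adjusted p = 1) and -0.23 ± 0.14 (adjusted p = 0.271), and short OVA and PBS overlapped. Ern2, IRE1 beta of mucous epithelia, was close to the detection limit, at an estimated 0 to 86.8 fragments a library. It had 0.777, 0.256, 1.08 and 0.763 FPKM in long OVA lungs, against 0.0509, 0.314 and 0.158 FPKM in long PBS lungs, and 0.557, 0.0898, 0.878 and 0.475 FPKM in short OVA lungs, against 0.00563, 0.0715 and 0 FPKM in short PBS lungs. OVA library b of the long group and OVA library 2 of the short group were the lowest of their groups, and the same libraries had the lowest sums of the 10 goblet cell markers, 164 and 442 FPKM. The short change of 0.87 ± 0.26 (adjusted p = 0.0193) was called and the long estimate was 0.82 ± 0.26 (adjusted p = 0.191). These values depend on the added 0.5, and the short call was lost without OVA library 1 or 3 or PBS library 1 or 3 (adjusted p = 0.0548 to 0.0759), while the long estimate was called without OVA library b (0.0423).

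Of the transcription factors and their targets, Xbp1 rose in both protocols, Atf4 in the short, and Ddit3, Trib3 and Creb3l1 were not called. Xbp1, whose mRNA is the substrate of IRE1, had 104, 75.6, 79.9 and 88.8 FPKM in long OVA lungs, against 52.1, 53.8 and 52.1 FPKM in long PBS lungs, and 116, 111, 105 and 111 FPKM in short OVA lungs, against 63.1, 57.2 and 56 FPKM in short PBS lungs. No OVA value overlapped PBS, with changes of 0.71 ± 0.12 (adjusted p = 0.0024) and 0.91 ± 0.12 (adjusted p = 1.74e-05), and every omission of 1 library left both calls. Of the 2 Xbp1 transcripts in the transcript table, 1 was listed at 0 in all 22 libraries and the other carried the whole value. Whether these estimates resolve the short intron that IRE1 removes was not tested, so spliced and unspliced Xbp1 were not told apart here. Atf4, the factor translated when PERK or a related kinase slows general translation, had 25.8, 26.7, 25.4 and 26.8 FPKM in long OVA lungs, against 21.7, 23.3 and 21.5 FPKM in long PBS lungs, and 35.1, 36.2, 32.1 and 33.2 FPKM in short OVA lungs, against 28.6, 23.6 and 26.3 FPKM in short PBS lungs. The short change of 0.38 ± 0.11 (adjusted p = 0.0155) was called and was lost without PBS library 2 (adjusted p = 0.0873) or PBS library 3 (0.0531). The long estimate was 0.24 ± 0.11 (adjusted p = 0.62). With the length trend removed the short estimate was 0.18 (adjusted p = 0.329). Ddit3, the pro-apoptotic factor CHOP, had 12.9, 14.7, 12.4 and 13.9 FPKM in long OVA lungs, against 12.7, 12.2 and 12.8 FPKM in long PBS lungs, and 17.1, 19.1, 21.4 and 18 FPKM in short OVA lungs, against 19.7, 14.7 and 15.9 FPKM in short PBS lungs. OVA and PBS overlapped in both, with estimates of 0.09 ± 0.17 (adjusted p = 1) and 0.17 ± 0.17 (adjusted p = 0.507), and 95% intervals of -0.27 to 0.45 and -0.18 to 0.53. Trib3, a pseudokinase induced by CHOP and ATF4, had 1.85 to 3.70 FPKM in long OVA lungs, against 1.66 to 2.16 FPKM in long PBS lungs, and 1.76 to 2.94 FPKM in short OVA lungs, against 2.63 to 3.36 FPKM in short PBS lungs, with overlap in both (adjusted p = 1 and 0.604). Creb3l1, a membrane-bound factor of the ATF6 type known from secretory cells, had 5.99 to 11.4 FPKM in long OVA lungs, against 5.78 to 9.40 FPKM in long PBS lungs, and 6.08 to 8.0 FPKM in short OVA lungs, against 4.20 to 5.12 FPKM in short PBS lungs (adjusted p = 1 and 0.28).

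**Figure D3:**
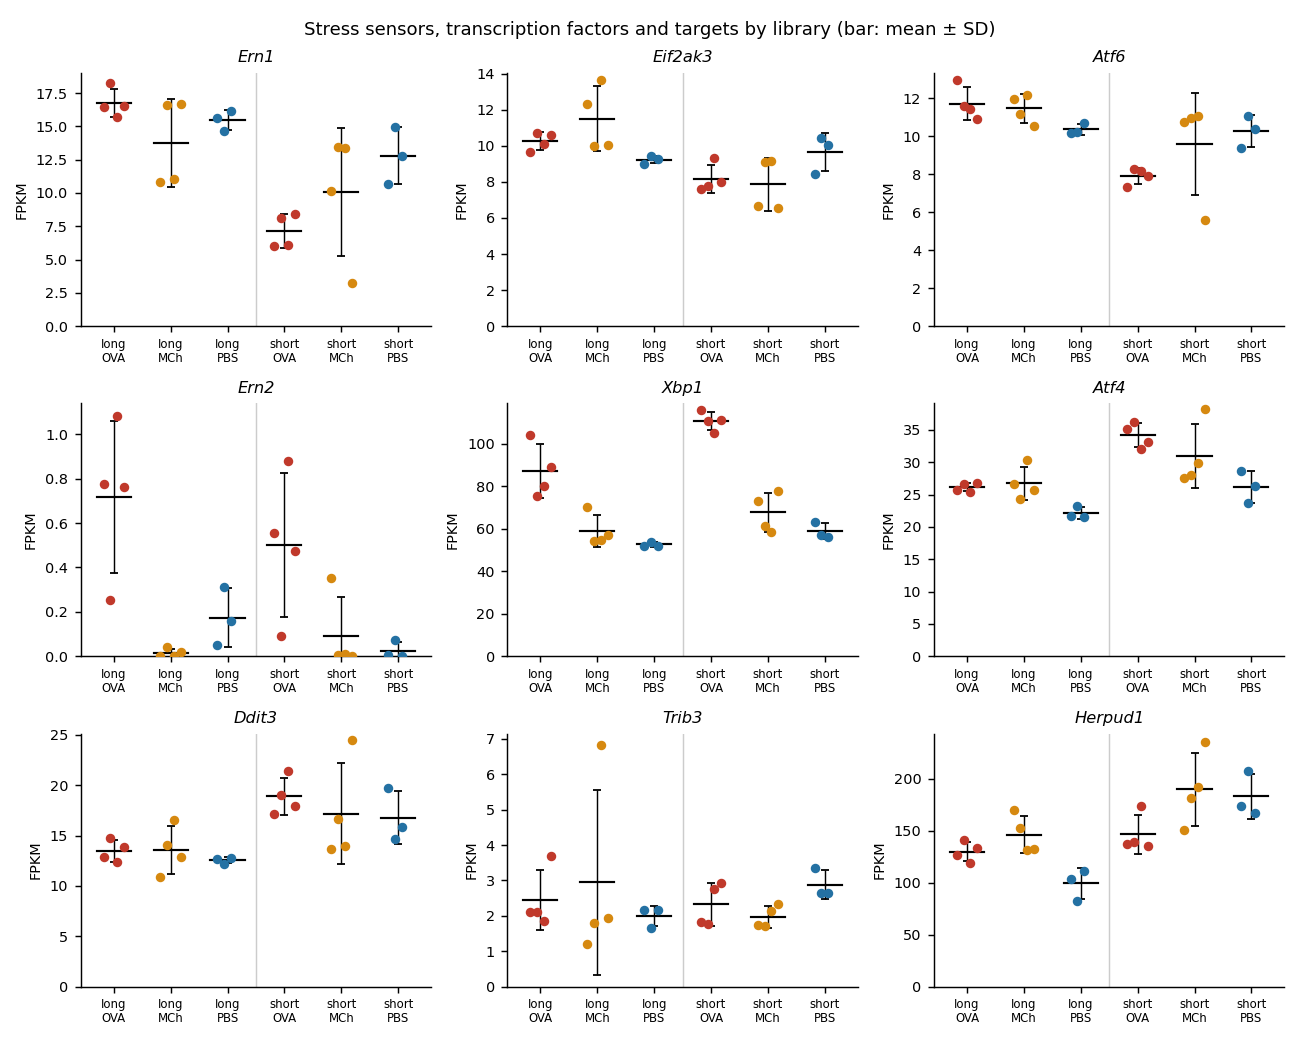
FPKM of the 4 sensors, of Xbp1, Atf4, Ddit3 and Trib3, and of Herpud1 in each library (points) with group mean and SD (bars), long groups at left and short groups at right. Xbp1 is higher in every OVA library than in the MCh and PBS libraries of its protocol, short OVA values of Ern1 and Atf6 lie below short PBS, and Ddit3 and Trib3 overlap.

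Levels can be compared between genes only per length. The deposited gene FPKM equalled the sum of a gene's transcript FPKM times a factor nearly constant for each gene (transcript sum over gene value from 0.182 for Sec61a1 to 7.18 for Sec61b), so levels are ordered by sums of transcript FPKM, mean ± SD over the 4 OVA or 3 PBS libraries. Hsp90b1 was the most abundant of the 32 in long OVA lungs at 757 ± 131, followed by Hspa5 at 579.9 ± 56.1 and Calr at 533 ± 18.6, which differed by less than their spread. In short OVA lungs Calr (629 ± 30.6), Hspa5 (625 ± 66.3) and Hsp90b1 (614 ± 59.3) led and differed by less than their spread. In PBS lungs the order was Hsp90b1, Calr, Hspa5, Pdia3 and Pdia6 in both protocols, from 486 ± 24.1 down to 179 ± 10.2 in the long and from 437 ± 13.2 down to 167 ± 12.1 in the short, where Hsp90b1 and Calr differed by less than their spread. Manf came after Pdia3 in short OVA lungs at 353 ± 27.6, level with Pdia6 at 337 ± 13.9, and Sec61b at 206 ± 23.8 was close to Xbp1 at 219 ± 8.71. The sensors Atf6, Eif2ak3 and Ern1 were among the lowest members, at 18.3 ± 1.36, 12 ± 0.560 and 12.6 ± 0.798 in long OVA lungs and 12.4 ± 0.649, 9.57 ± 0.969 and 5.39 ± 0.966 in short OVA lungs. Creb3l1, Trib3 and Ern2 were lower than all 3 of these sensors in the 2 PBS groups and in long OVA lungs, and in short OVA lungs Creb3l1 at 7.51 ± 0.938 was above Ern1.

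Among libraries, the median of the 32 genes over the mean of their protocol's PBS lungs was 0.52, 0.35, 0.42 and 0.46 on the log2 scale in the long OVA libraries and 0.45, 0.52, 0.62 and 0.51 in the short. All 32 genes were above the PBS mean in long OVA libraries a and d, 31 in b and 30 in c, and 25 to 28 in the short OVA libraries. Long OVA library a held the highest value of its group for 19 of the 32 genes, Edem1, Creld2, Hsp90b1, Pdia4, Sdf2l1, Manf and Xbp1 among them. Leaving it out left 5 genes called, with 0.638% of all tested genes called, and the members' median at 0.40. The count was 7 without OVA library d, 6 without PBS library 1 or 2 and 4 without PBS library 3, with 0.548% to 0.784% of all genes called. The most over the 7 omissions was 9, without OVA library b, with 1.26% of all genes called. All of these calls were in the higher direction. For the short protocol the count stayed between 13 and 17, with 12.8% to 20.9% of all tested genes called.

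**Figure D4:**
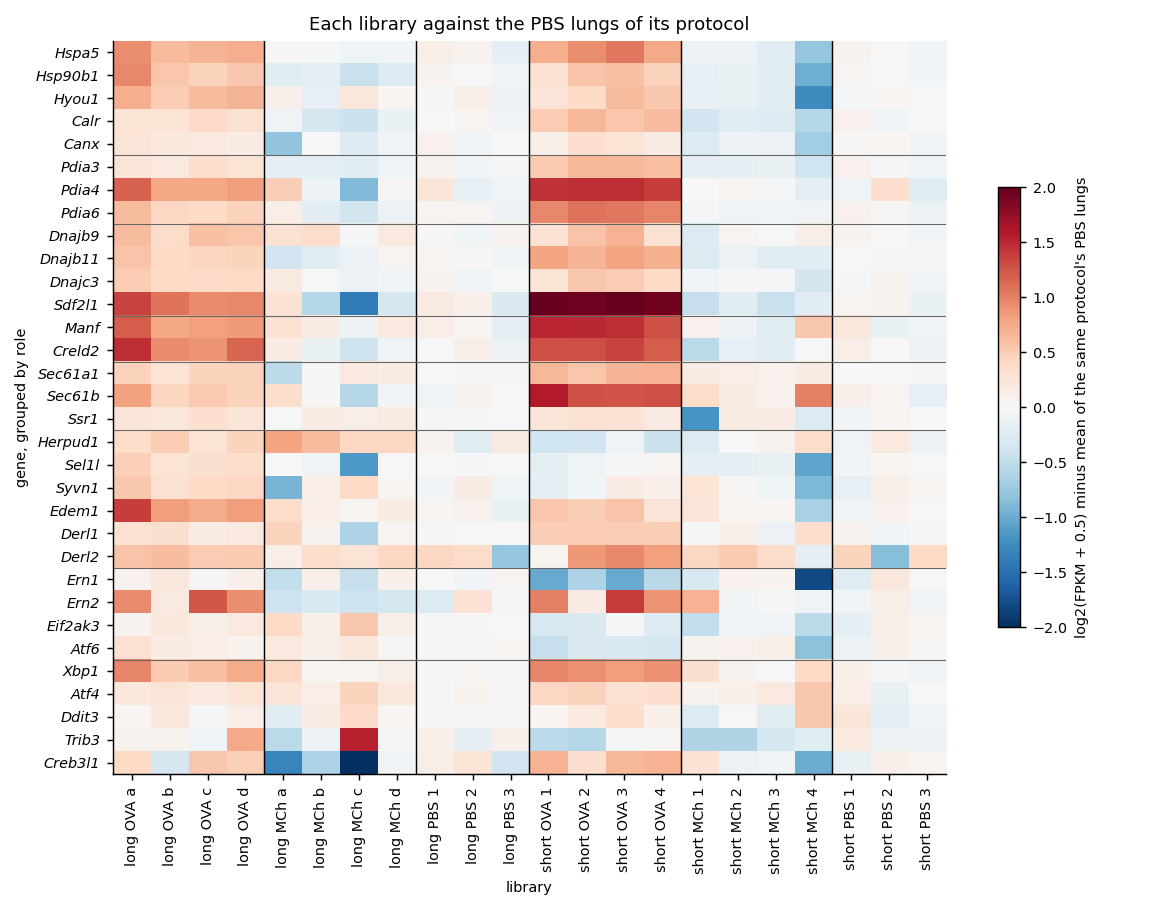
Log2(FPKM + 0.5) of each of the 32 genes (rows) in each library (columns) minus the mean of the PBS libraries of the same protocol, with colours capped at -2 and 2. Red spans nearly all rows in the 4 long OVA columns and the folding genes in the 4 short OVA columns, and short MCh library 4 and long MCh library c hold single dark blue cells.

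By their sums, plasma cell and macrophage markers were higher in long OVA lungs and goblet cell, macrophage and eosinophil markers in short OVA lungs, while the sums of goblet cell and eosinophil markers overlapped with PBS in the long protocol and that of plasma cell markers in the short. The sums add deposited gene FPKM, whose factor differs between genes. The genes of a list therefore weigh unequally, and a few can carry a sum. The summed FPKM of 10 plasma cell markers was 815 to 2045 in long OVA lungs, against 128 to 157 in long PBS lungs, and library a, the highest for most of the 32 genes, also had the highest sum. Of the 10 markers 5 were called higher, with the smallest p for Jchain, the joining chain of secreted antibodies (4.95 ± 0.54, adjusted p = 2.86e-05). In short OVA lungs the plasma cell sum was 174 to 278, against 104 to 193 in short PBS lungs, with 4 of 10 called higher and the smallest p for Irf4, a factor of plasma cell differentiation (2.53 ± 0.43, adjusted p = 0.00029). The sum of 10 goblet cell markers was 164 to 1177 in long OVA lungs, against 156 to 234 in long PBS lungs, and 1 of 10 was called, the anion exchanger Slc26a4 (3.49 ± 0.55, adjusted p = 0.00155). In short OVA lungs it was 442 to 1614, against 10.1 to 75 in short PBS lungs, and 10 of 10 were called higher. Macrophage and monocyte markers summed to 2027 to 3002 in long OVA lungs, against 301 to 1031 in long PBS lungs, with 7 of 10 called higher, and to 5269.6 to 7682 in short OVA lungs, against 311 to 391 in short PBS lungs, with 8 of 10 called higher. The highest long OVA sum of these markers was again that of library a, beside 2027 to 2290 in libraries b to d. Eosinophil markers summed to 8.51 to 12.5 in long OVA lungs, against 8.97 to 10.5 in long PBS lungs, with 1 of 5 called, and to 11.3 to 23.6 in short OVA lungs, against 6.28 to 7.64 in short PBS lungs, with 4 of 5 called higher. Heart muscle markers overlapped between OVA and PBS in both protocols and summed to 43.2 to 137 in long OVA lungs, against 50.9 to 230.2 in long PBS lungs, and to 53.7 to 211 in short OVA lungs, against 118 to 429 in short PBS lungs. Of the 8, none was called in the long and 1 was called lower in the short protocol. Of the 10 markers of lung epithelium and endothelium, 0 were called in the long protocol, and 1 was called higher and 3 lower in the short. No marker was at 0 throughout a group. The part of these cells in the changes of the 32 genes was not tested. Derl3 and Txndc5, 2 of the plasma cell markers, and Agr2, a goblet cell marker, are also ER proteins of the lists described further on.

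Short OVA estimates also moved with transcript length. Over 15477 tested genes with a length, the rank correlation of the change with length was -0.44 in the short and -0.11 in the long protocol, a description across genes, which are not independent replicates. Over the 32 members it was -0.49 and -0.25. Sec61b and Sdf2l1, among the shortest transcripts, had large short changes, and Ern1 and Atf6 have transcripts of 6946 and 7246 bases. Other members did not follow the trend: Ddit3, at 890 bases, had a short estimate of 0.17 ± 0.17. Ssr1, the longest at 9333 bases, had 0.25 ± 0.20. With each library's length trend removed, 20 of the 32 were called higher and 1 lower (Herpud1) in the short protocol and 11 higher in the long, with 21.4% and 1.4% of all genes of that fit called. Short MCh against short PBS had the same correlation over all genes, -0.44, with no member called.

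**Figure D5:**
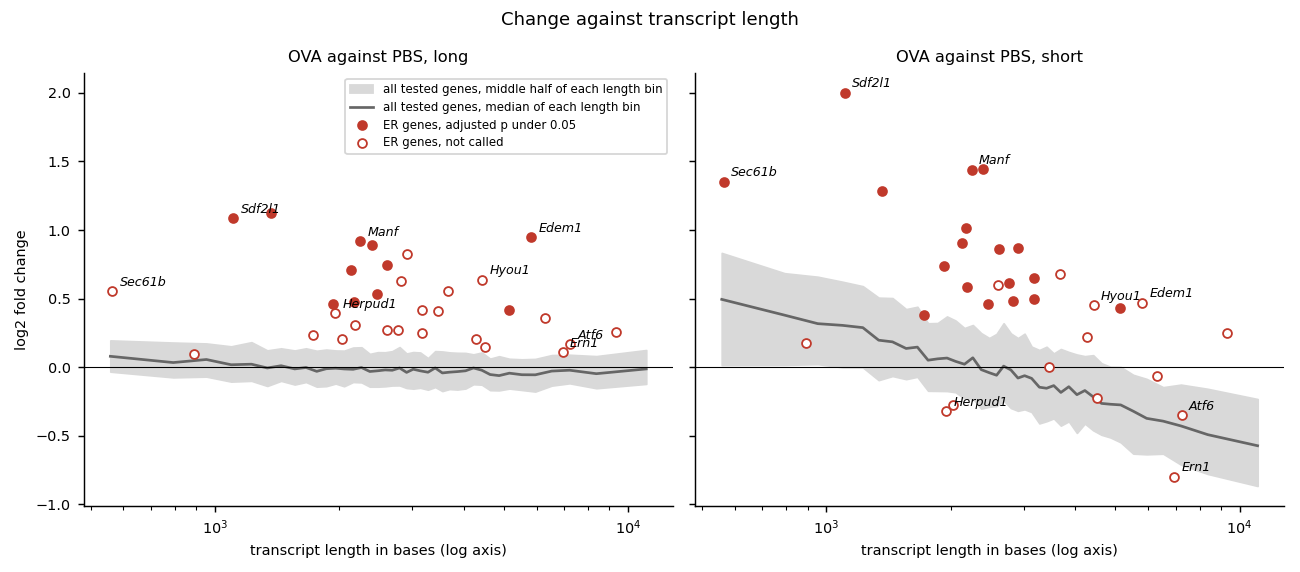
Log2 fold change of OVA against PBS lungs by transcript length in bases (log axis), long protocol at left and short at right. The grey line and band are the median and the middle 50% of all tested genes in 40 length bins, and red points are the 32 genes, filled where the adjusted p is under 0.05. In the short panel the grey line slopes down with length, and the filled points lie above it.

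MCh aerosol, which constricts the airways without an allergen, gave no call among the 32 genes. In the long protocol 0 of 32 were called, with 0.0638% of all tested genes called. An unadjusted limma p under 0.05 was found for 5 of the 32 and for 2551 of the 15682 tested genes. In the short protocol 0 of 32 were called, with 0.00638% of all tested genes called (1 gene). Here 7 of the 32 and 1175 of the 15682 tested genes had an unadjusted p under 0.05. In short MCh lungs 5 chaperones and 5 other genes sat on the low side: these 10 genes had all 4 MCh values below all 3 PBS values, which was so for 5.52% of all tested genes. They were Hspa5, Hsp90b1, Hyou1, Calr, Canx, Pdia3, Dnajb11, Sdf2l1, Sel1l and Trib3. Calr had 321, 353, 350.1 and 281 FPKM in short MCh lungs and an estimate of -0.37 ± 0.10 (adjusted p = 0.382) against the PBS values above. Hspa5 had 268, 265, 246 and 167 FPKM in short MCh lungs and an estimate of -0.30 ± 0.14 (adjusted p = 0.653). Hyou1 had 119, 119.9, 115 and 55.7 FPKM in short MCh lungs, against 131, 136 and 133 FPKM in short PBS lungs, and an estimate of -0.44 ± 0.19 (adjusted p = 0.64). Library 4 was the lowest each time. Without it the estimates were -0.30 for Calr, -0.14 for Hspa5 and -0.18 for Hyou1, none called. The median over the 32 was -0.15, beside -0.05 over all tested genes. Of the sensors, Ern1 had 10.2, 13.5, 13.4 and 3.27 FPKM and Atf6 10.7, 10.9, 11.1 and 5.58 FPKM in short MCh lungs, again lowest in library 4. Xbp1 had 73.2, 61.3, 58.6 and 77.6 FPKM in short MCh lungs and an estimate of 0.19 ± 0.12 (adjusted p = 0.729).

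In long MCh lungs the median over the 32 was -0.05, beside -0.14 over all tested genes. The median over all tested genes was -0.04 with median-of-ratios and 0.02 with quantile normalization, and the members' median was then 0.09 and 0.02. Herpud1 had the smallest p of the 32. It had 169.5, 152, 132 and 132 FPKM in long MCh lungs, against 103, 82.7 and 111 FPKM in long PBS lungs, with no overlap. Its estimate of 0.56 ± 0.14 (adjusted p = 0.187) was not called, and without MCh library d it was 0.61 and called (adjusted p = 0.036). Without that library 4.98% of all tested genes were called. Creb3l1 had 2.78, 4.83, 1.13 and 7.32 FPKM in long MCh lungs, against 8.34, 9.40 and 5.78 FPKM in long PBS lungs, and an estimate of -1.09 ± 0.39 (adjusted p = 0.225). Its lowest values were in libraries a and c, which list the most genes at 0, and without library d the estimate was called (-1.42, adjusted p = 0.0359). Hspa5 had 294, 284, 274 and 278 FPKM in long MCh lungs and an estimate of -0.04 ± 0.14 (adjusted p = 0.918), and Xbp1 had 70, 54.3, 54.6 and 56.9 FPKM and an estimate of 0.15 ± 0.12 (adjusted p = 0.518). Sdf2l1 had 10.6, 5.58, 2.94 and 6.59 FPKM in long MCh lungs and an estimate of -0.51 ± 0.25 (adjusted p = 0.31). Its SD of 3.17 FPKM over the 4 libraries was the largest of the 6 groups. Atf4 had 26.6, 24.4, 30.3 and 25.7 FPKM in long MCh lungs, all above the PBS values, and an estimate of 0.26 ± 0.11 (adjusted p = 0.262).

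Set against MCh lungs instead of PBS lungs, OVA lungs were also higher in most folding genes. These comparisons share their OVA libraries with those against PBS. In the long protocol 17 of 32 genes were called higher and none lower (4.75% of all tested genes were called higher), and in the short protocol 19 were called higher and none lower (9.37% of all tested genes). The medians over the 32 were 0.53 (long) and 0.54 (short), beside 0.14 and -0.01 over all tested genes. The long all-gene median was 0.06 with median-of-ratios and -0.04 with quantile normalization, where 14 and 18 members were called higher. Of all genes of those 2 fits 6.21% and 5.73% were called in either direction. Called in both protocols were 16 genes: the 3 isomerases, Hspa5, Hsp90b1, Calr, Canx, Dnajb11, Dnajc3, Sdf2l1, Manf, Creld2, Sec61a1, Edem1, Ern2 and Xbp1. Sdf2l1 differed most, by 1.59 ± 0.23 (adjusted p = 0.000198) in the long and 2.33 ± 0.23 (adjusted p = 4.67e-07) in the short protocol, and Creld2 by 1.25 ± 0.13 (adjusted p = 7.17e-06) and 1.51 ± 0.13 (adjusted p = 1.28e-07). Hspa5 differed by 0.78 ± 0.13 (adjusted p = 0.000722) and 1.16 ± 0.13 (adjusted p = 1.85e-06). Hyou1 (0.90 ± 0.17, adjusted p = 0.00113), Dnajb9 (0.49 ± 0.12, adjusted p = 0.00797) and Sec61b (0.95 ± 0.19, adjusted p = 0.00132) were called in the short protocol alone, and Creb3l1 (1.35 ± 0.36, adjusted p = 0.0288) in the long alone. In the long protocol the Canx, Creb3l1 and Sec61a1 calls were kept in 2, 3 and 6 of the 8 omissions of 1 library. Without OVA library a their adjusted p was 0.123, 0.0901 and 0.0607. Over the omissions the lowest estimates were 0.32, 0.94 and 0.31. Canx and Sec61a1 had their lowest long MCh values, 78.2 and 199.6 FPKM, in library a, which lists many genes at 0. In the short protocol the Edem1 call was lost without OVA library 1, 2 or 3 (adjusted p = 0.0523 to 0.071) and the Ern2 call without OVA library 1, 3 or 4 or MCh library 2, 3 or 4 (0.0631 to 0.151). Without short MCh library 4, 21 members were called higher and 2 lower, with 30.8% of all tested genes called, against 15.2% with it. With it, Ern1 (-0.31 ± 0.29, adjusted p = 0.537) and Atf6 (-0.21 ± 0.16, adjusted p = 0.409) were not called, and without it these 2 sensors were the members called lower in OVA lungs (-0.75, adjusted p = 0.00234, and -0.44, adjusted p = 0.00104).

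Whether the OVA effect differed between protocols was tested as long minus short in the same fit. No member was called, with 1.88% of all tested genes called. An unadjusted p under 0.05 was found for 8 of the 32 members and for 2386 of the 15682 tested genes. Pdia6 came nearest on the side of a larger short effect (-0.54 ± 0.14, adjusted p = 0.0535), and without long OVA library a it was called (-0.59, adjusted p = 0.0378). Herpud1 came nearest on the other side (0.72 ± 0.20, adjusted p = 0.0811), and without short OVA library 3 it was called (0.80, adjusted p = 0.0463). Its PBS level was 99.2 ± 14.8 FPKM in long and 183 ± 21.8 FPKM in short PBS lungs. The other estimates with an unadjusted p under 0.05 were Sdf2l1 (-0.91 ± 0.35), Sec61b (-0.80 ± 0.29), Manf (-0.52 ± 0.22), Pdia3 (-0.34 ± 0.11), Dnajb11 (-0.28 ± 0.13) and Atf6 (0.52 ± 0.24). For Creld2, Hspa5, Dnajc3 and Dnajb9 the estimates were -0.16 ± 0.20, -0.12 ± 0.19, -0.01 ± 0.14 and 0.07 ± 0.18, with 95% intervals of -0.59 to 0.27, -0.53 to 0.28, -0.31 to 0.29 and -0.31 to 0.45. The long-minus-short estimate rose with transcript length over all genes (rank correlation 0.46) and over the 32 members (0.57). A fit to the 4 groups of this contrast alone called 14 members, 5 with a larger and 9 with a smaller long effect, and 28.8% of all tested genes.

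Of 89 further genes of the same pathways, in 5 lists, 88 were tested. In long OVA lungs 6 were called higher (6.82%) and none lower, beside 1.03% and 0.153% of all tested genes. In short OVA lungs 41 were called higher (46.6%) and 5 lower (5.68%), beside 12.4% and 11.7% of all tested genes. By list the short share called higher was 66.7% for the translocon and signal peptidase, 50% for oligosaccharyltransferase and glycoprotein folding, 69.6% for oxidative folding and other chaperones, 21.4% for ERAD and 25% for stress signalling, and in these last lists 7.14% and 16.7% were called lower. Neither MCh comparison called any. In the list of the translocon and signal peptidase, 1 of 15 was called higher in the long and 10 in the short protocol. Ssr3, a translocon-associated subunit, was called in both (0.31 ± 0.07, adjusted p = 0.0298, and 0.73 ± 0.07, adjusted p = 4.96e-07), and its effect was called smaller in the long protocol (-0.42 ± 0.10, adjusted p = 0.0331). The Sec61 subunit Sec61g and the signal peptidase subunit Spcs2 rose in the short (1.40 ± 0.22 and 0.79 ± 0.13). Of 12 genes of oligosaccharyltransferase and glycoprotein folding, none was called in the long and 6 in the short protocol, all higher, with the smallest p for the oligosaccharyltransferase subunits Ostc (1.24 ± 0.18), Rpn1 (0.61 ± 0.10) and Ddost (0.57 ± 0.09). Of 23 genes of oxidative folding and other chaperones, 3 were called higher in the long protocol, the thioredoxin-like Txndc5 (0.71 ± 0.12), the translocon-linked Serp1 (0.54 ± 0.10) and the HSP70 relative Hspa13 (0.50 ± 0.11), and 16 in the short, among them Serp1 (0.76 ± 0.10), the cyclophilin Ppib (1.0 ± 0.15) and the goblet cell isomerase Agr2 (4.16 ± 0.67). Of 14 further genes of the ERAD list, Derl3, the derlin known from plasma cells, was called in the long protocol (2.37 ± 0.39, adjusted p = 0.00247), and 3 were called higher and 1 lower in the short. The higher ones were Sec23b (0.83 ± 0.11), Derl3 (1.76 ± 0.39) and Selenos, a selenoprotein of the ERAD complex (0.54 ± 0.13). Sec23b was placed in this list although it encodes a subunit of the COPII coat and not an ERAD component. Of 24 tested genes of stress signalling, 1 was called in the long protocol, the stress-induced factor Atf3 (1.23 ± 0.20), and 6 higher and 4 lower in the short, with Atf3 (1.92 ± 0.20), the serine synthesis enzyme Psat1 (1.29 ± 0.18) and the initiation factor subunit Eif2s1 (0.79 ± 0.13) having the smallest p. The 4 lower were the protease Mbtps1 (-0.39 ± 0.09), which cleaves ATF6, the factors Creb3l2 (-0.72 ± 0.23) and Cebpg (-0.29 ± 0.10), and Sesn2 (-0.64 ± 0.22). These 4 are named because of their values. The long-minus-short estimate of the stress-induced Nupr1 was called, at -0.96 ± 0.23 (adjusted p = 0.0302).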

How the data were processed

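The authors deposited FPKM for 20938 genes and 36844 RefSeq transcripts, 1 column for each of 22 libraries. Per the labels' protocols, total RNA was purified with RNeasy kits and DNase I and made into TruSeq Stranded Total RNA libraries. The submitters' processing notes name Trim Galore, STAR, DESeq2 and mm10, and the program that gave the FPKM is not given in the sources used here. Strand-specific counting is not stated, so reads of a gene and its antisense partner may not have been told apart.

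A linear model of log2(FPKM + 0.5), with 1 coefficient for each of the 6 groups and a trended prior variance, was run in limma 3.58.1 (R 4.3.3). It covered the 15682 genes that reached 0.1 FPKM in 3 or more libraries. Fold changes on this scale understate the change of low genes. P-values were two-sided and Benjamini-Hochberg adjusted over all tested genes. The fit was tested on simulated data. Depth was estimated from the whole-fragment steps of low values of genes with a single transcript. No 2 libraries held identical values, and no column of values was left unused.

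Long OVA and long MCh columns carry numbers other than those of the titles, so these 8 libraries were placed by group only. The other 14 carry the labels' replicate numbers. Deviations from the group means of same-numbered short libraries correlated at -0.27 to 0.36, so the numbers were not taken to pair animals.

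The 32 genes, the pathway lists and the marker lists were chosen with earlier results of these data known. Per-library values are given for the 16 called genes with the smallest p over the comparisons with PBS and for the 4 sensors, Xbp1, Atf4 and Ddit3, and for further genes where a group holds values far apart or the text turns on them. In each further list at most the 3 called genes with the smallest p and a mean of at least 1 FPKM are named, besides those said to be named for their values. A called gene of these lists is counted and not reported here. Of these lists' symbols 3 were matched through RefSeq synonyms. Alternatives were pseudocounts of 0.1 and 1, filters at 1 FPKM and none, median-of-ratios scaling, quantile normalization, array weights, a fit to the contrast's groups alone, omission of each library and of the 3 libraries with most genes at 0, removal of each library's trend on transcript length, a replicate block and, chosen after seeing the data, sums of transcript FPKM in place of gene FPKM.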

Additional observations from a re-analysis of the deposited data

Results flagged for a closer look

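Of 128 groups of 4 libraries (each of the 32 genes in the OVA and MCh groups of both protocols), 17 held a library whose distance from its neighbours was large for the range of the group. Chance flags about 1 in 20 groups. Low values in short MCh library 4 were 207 FPKM for Hsp90b1, 55.7 for Hyou1, 20.1 for Sel1l and 5.58 for Atf6. High values in long OVA library a were 184 FPKM for Pdia4, 406 for Dnajc3, 192 for Manf and 121 for Edem1. Long MCh library c was low for Sel1l at 20.6 FPKM and high for Trib3 at 6.83, and long MCh library a was high for Xbp1 at 70.04. Short OVA libraries stood out with high values for Sec61b (33.6 FPKM, library 1) and Herpud1 (174, library 3) and a low value for Creb3l1 (6.08, library 2). Further values apart from their groups were a low 350.4 FPKM for Sec61a1 in long OVA library b, a high 3.70 for Trib3 in long OVA library d and a high 0.352 for Ern2 in short MCh library 1.

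For Atf6 every long OVA library lay above the long PBS libraries and every short OVA library below the short PBS libraries. The test of the difference, long minus short, gave 0.52 on the log2 scale and did not pass the threshold (limma adjusted p = 0.308).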

How the results depend on the processing

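No value of the 32 genes that was called changed its direction under any alternative run. The long OVA against PBS count of 11, with 1.18% of all genes called, was 25 with array weights (13.1%) and 22 with a fit to its groups alone (6.52%). With each library left out it was 4 to 9 (0.548% to 1.26%). The difference in OVA effect, with no member and 1.88% of all genes called, gave 16 calls with array weights (31.2%) and 14 with its groups alone (28.8%). Without the 3 libraries with most genes at 0 it gave 3 (6.57%, Pdia6 and Sdf2l1 lower, Herpud1 higher). It gave 1 with pseudocount 1, with no filter, with quantile normalization or with the length trend removed (1.14% to 2.4%). With each library left out it gave 0 to 1 (0.842% to 1.98%). MCh against PBS gave 1 call with array weights in the short protocol (2.17% of all genes). In the long protocol it gave 1 with array weights (0.95%) or the length trend removed (0.194%). With each library left out in the long protocol it gave 0 to 2 (0.00638% to 4.98%). The cause was not tested. A fit to few groups estimates the spread from fewer libraries, and weights favour libraries close to their group. The spread of the main fit takes in the MCh libraries, also for OVA against PBS, and a fit to the OVA and PBS groups alone leaves them out. Array weights were lowest for long MCh libraries a (0.0664) and c (0.0877) and short MCh library 4 (0.0834).

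The other counts stayed within 1.5 times, the short OVA against PBS count of 18 (24.2% of all genes) between 13 without short PBS library 3 (12.8%) and 26 with array weights (51%) or its groups alone (48.4%), each with 23 higher and 3 lower (Herpud1, Ern1 and Atf6). With a replicate block it was 15 (14.5% of all genes), the short MCh against PBS count 0 (0.00638%) and the short OVA against MCh count 19 (12.6%). Short calls of Atf4, Derl1, Dnajb9, Ern2 and Hsp90b1 and 7 of the 11 long calls were lost without single libraries, while Creld2, Manf and Xbp1 kept both and Edem1 its long call. Over the other alternatives the short calls of Hsp90b1, Atf4, Dnajb9 and Dnajc3 were kept in 9, 10, 11 and 11 of 12 runs, and that of Ern2 in 10 of 11. The long calls of Pdia4, Dnajb9, Dnajc3 and Sdf2l1 were kept in 9, 8, 8 and 10 of 11 runs. The remaining OVA against PBS calls were kept in all. Depth limits Ern2, Trib3 and Creb3l1.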
